A study of Ovis aries with 6 samples.

Results

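Ferritin is the protein shell in which cells keep iron, and its heavy and light chains are encoded by FTH1 and FTL. Both genes were read in the somatic cells of sheep milk, the epithelial and immune cells that are shed into milk. Transcripts were chosen by gene symbol, and 2 of the 49705 RefSeq transcripts in the deposited table carried either symbol: NM_001009786.2 for FTH1 and XM_004015365.3 for FTL. The pair was singled out with its levels under both diets already known, so the diet values of the ferritins are given as a description, without a test. The 6 libraries came from 3 Comisana ewes, each sampled under both diets, and day 90 of lactation is given for all of them. In the control group the ewes ate grass hay and a commercial concentrate for 3 weeks. In the linseed group the same animals then ate grass, hay and a concentrate with extruded linseed at 20% of dry matter, again for 3 weeks. Every ewe received linseed second, so lactation day need not be matched between the diets although the same day is given for both. Diet and the passing of time, lactation stage included, cannot be told apart.

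The heavy chain carries the ferroxidase centre, which oxidises ferrous iron as it enters the shell, and the light chain helps the iron core to form. Translation of both mRNAs is held back by iron regulatory proteins when iron is scarce, and their transcription responds to oxidative stress through the antioxidant response pathway. Macrophages, which recycle iron, hold large amounts of both chains, and lactating epithelial cells express them too. The mRNA level measured here is one layer of this control and does not give the amount of protein.

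The libraries held 4941935 to 22644050 reads, as solved from the steps of the RPKM values (reads scaled to transcript length and to the size of the library). FTH1 was backed by 57570 to 571024 reads per library and FTL by 14663 to 164880, so counting error was at most 0.826% of any ferritin value and small beside the differences between sheep. The defining transcripts of milk cells were present: 6 milk protein genes (4 caseins, PAEP and LALBA) took 1.25% to 47.0% of reads, lowest in both libraries of sheep 3. No pair of libraries was identical, and across tested transcripts they correlated at 0.61 to 0.93.

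FTH1 was more abundant in every linseed library than in any control library. Under the control diet its level was 6988 RPKM in sheep 1, 10990.2 in sheep 2 and 5845 in sheep 3. With linseed it was 13207, 17960.3 and 30868 RPKM in the same sheep. The lowest linseed library stood 1.20 times above the highest control library, so the groups did not overlap but lay close. The mean of the control libraries was 7941 ± 2702 RPKM and that of the linseed libraries 20678 ± 9139 (SD, n = 3 each), a ratio of 2.60. Within sheep the linseed library held 1.89, 1.63 and 5.28 times the control level in sheep 1, 2 and 3, so most of the difference between the means came from the last of these.

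FTL followed the same order of groups at a lower level. The control libraries of sheep 1, 2 and 3 had 3752, 4933 and 1537 RPKM, and their linseed libraries 6606, 10055 and 9200.02. Control sheep 3 was lowest of all, and the lowest linseed library was 1.34 times the highest control library. Control libraries had a mean of 3407 ± 1724 RPKM and linseed libraries one of 8620.5 ± 1796 (SD, n = 3 each), a ratio of 2.53. The within-sheep folds were 1.76, 2.04 and 5.99. The spread between sheep was wider in controls for FTL, with a coefficient of variation of 50.6% against 20.8% with linseed. For FTH1 the spread was 34.0% in controls and 44.2% with linseed.

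**Figure D1:**
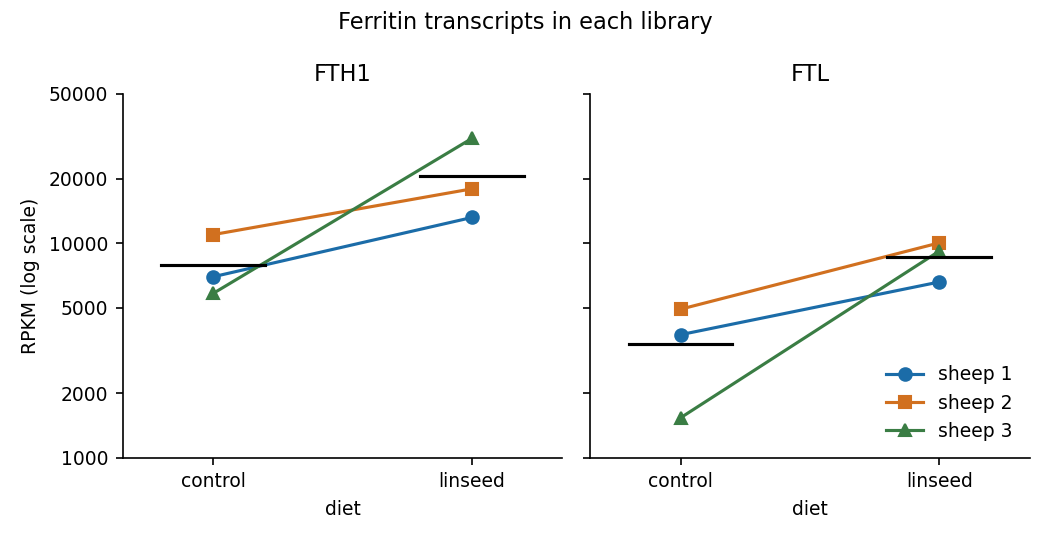
RPKM of FTH1 (left) and FTL (right) on a log axis for the control and linseed library of each sheep, joined by a line, with black bars at the group means. All 3 linseed points lie above all 3 control points for both genes, and sheep 3 has the steepest line, from 5845 to 30868 RPKM for FTH1.

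On the log2(RPKM + 1) scale the difference, linseed minus control, was 1.34 ± 0.60 (SE of the limma fit) for FTH1 and 1.47 ± 0.63 for FTL. With the sheep entered in the fit as a block, the differences were the same and the SE was 0.71 for FTH1 and 0.70 for FTL. By sheep the difference was 0.92, 0.71 and 2.40 for FTH1 and 0.82, 1.03 and 2.58 for FTL. Such non-overlap with linseed above was seen for 2110 of 15891 tested transcripts, or 13.3%, and 23% of tested transcripts were higher in all 3 sheep. A larger difference than that of FTH1 was found for 9.63% of tested transcripts, and a larger one than that of FTL for 7.66%. Over the whole table limma called 0 of 15891 transcripts in either direction (0%; Benjamini-Hochberg threshold of 0.05). Before adjustment 2464 had a p under 0.05. Limma-voom on the recovered reads also called 0, with 2194 at an unadjusted p under 0.05. When sheep entered the fit as a block, 203 transcripts were called higher (1.28%) and 213 lower (1.34%), and 41 (0.258%) and 155 (0.975%) when milk proteins were also removed from the total. With the block and a correction for transcript length, limma called 0 in either direction (0%), with 3909 at an unadjusted p under 0.05. Without sheep 3 the differences were 0.81 for FTH1 and 0.92 for FTL, and FTL had 0.98 without control sheep 3 alone.

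**Figure D2:**
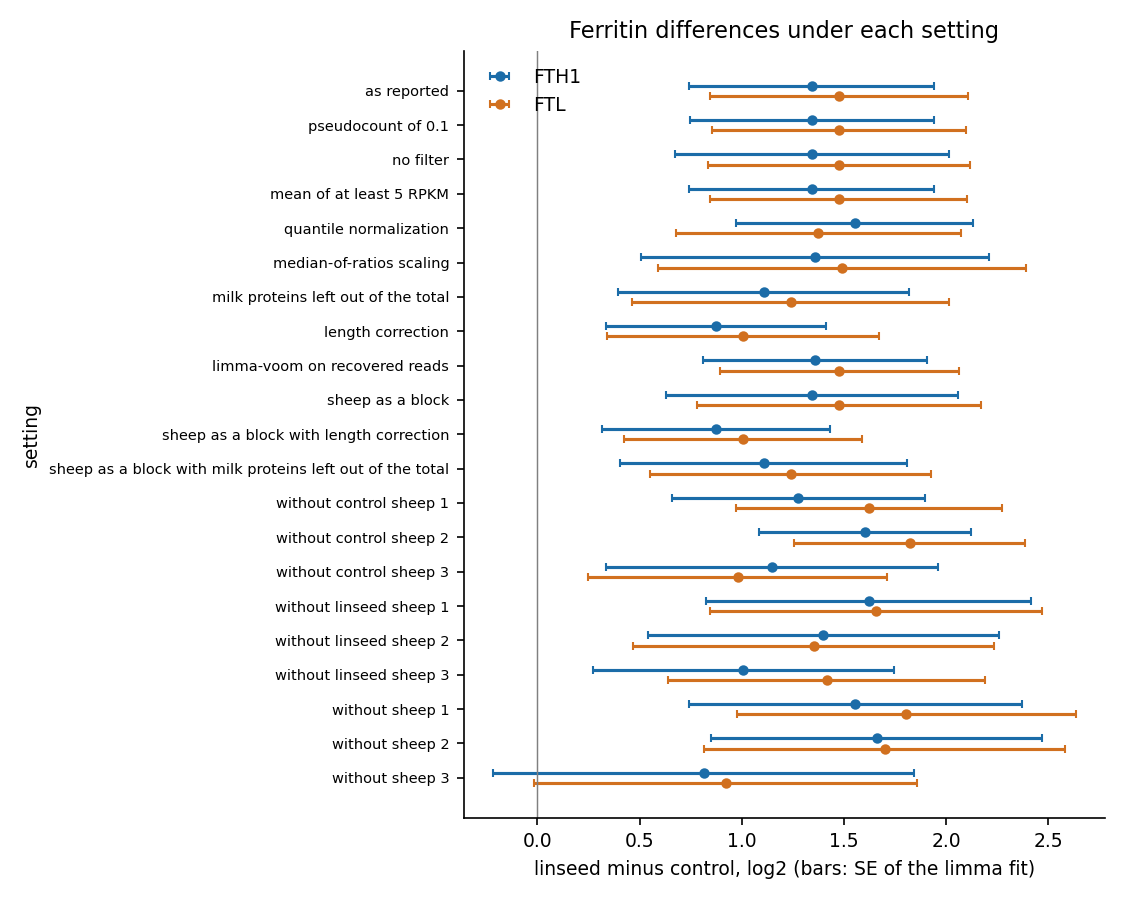
Log2 difference, linseed minus control, for FTH1 and FTL under each processing setting, with bars for the standard error of the limma fit. Every point lies above 0, from 0.81 (FTH1 without sheep 3) to 1.82 (FTL without control sheep 2). Where a library or a sheep is left out, this sign was fixed in advance, since the groups did not overlap.

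By abundance the ferritins stood among the leading transcripts of these cells. Among all transcripts FTH1 ranked 10, 7 and 6 in the controls of sheep 1, 2 and 3, and 5, 5 and 1 under linseed. With the 6 milk protein genes set aside its rank was 4, 1 and 2 in controls and 2, 1 and 1 with linseed. FTL ranked 13, 12 and 43 in controls and 14, 10 and 2 with linseed. In the linseed library of sheep 3, where milk proteins took the smallest share of reads, FTH1 was therefore the most abundant transcript of all and FTL the next. FTL moved from rank 13 to rank 14 in sheep 1 although its RPKM was higher there with linseed.

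The balance of heavy to light chain, which sets how fast a ferritin shell takes up iron, differed between sheep more than between diets. FTH1 had 1.86, 2.23 and 3.80 times the RPKM of FTL in control sheep 1, 2 and 3. The ratio was 1.999, 1.79 and 3.36 with linseed. Sheep 3 had the highest ratio under both diets, and the other 4 libraries lay between 1.79 and 2.23. The mean ratio was 2.63 ± 1.03 in controls and 2.38 ± 0.85 with linseed (SD, n = 3 each), a difference smaller than the spread within either group. On the log2 scale the ratio differed by 0.10, -0.32 and -0.18 in sheep 1, 2 and 3. Over the 6 libraries the log2 levels of the 2 chains correlated at a Pearson r of 0.89, a description over 3 animals that were each read under both diets.

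Both chains together made up 1.32%, 1.81% and 1.31% of summed RPKM in the controls of sheep 1, 2 and 3. Under linseed they made up 1.88%, 3.01% and 5.59%. The mean share was 1.48% ± 0.28 in controls and 3.50% ± 1.90 with linseed (SD, n = 3 each). Within each ewe the share of milk proteins went the other way. Their part of the reads was 47.0%, 35.4% and 4.24% under the control diet and 29.5%, 23.0% and 1.25% under linseed, smaller for every ewe. That held for their sum and not for each gene. The RPKM of the 4 caseins was lower with linseed in each ewe. PAEP and LALBA were higher in sheep 1 and 2 and lower in sheep 3, and PAEP went from 64306 to 268127 RPKM in sheep 1. Of the RPKM outside the 6 milk protein genes, the ferritins had 3.09%, 3.00% and 1.41% in controls and 2.84%, 4.17% and 5.69% with linseed. On that base sheep 1 was lower with linseed and the groups overlapped. When RPKM was instead rescaled to the reads left after removing milk proteins, FTH1 had 13183, 17015 and 6104 in controls and 18742, 23316 and 31259 with linseed. Those rescaled groups did not overlap, and the log2 differences were 1.11 ± 0.71 (SE) for FTH1 and 1.24 ± 0.77 for FTL. This scaling moved the median difference of all tested transcripts from -0.12 to -0.28, and relative to that median FTH1 went from 1.46 to 1.38 and FTL from 1.59 to 1.52.

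**Figure D3:**
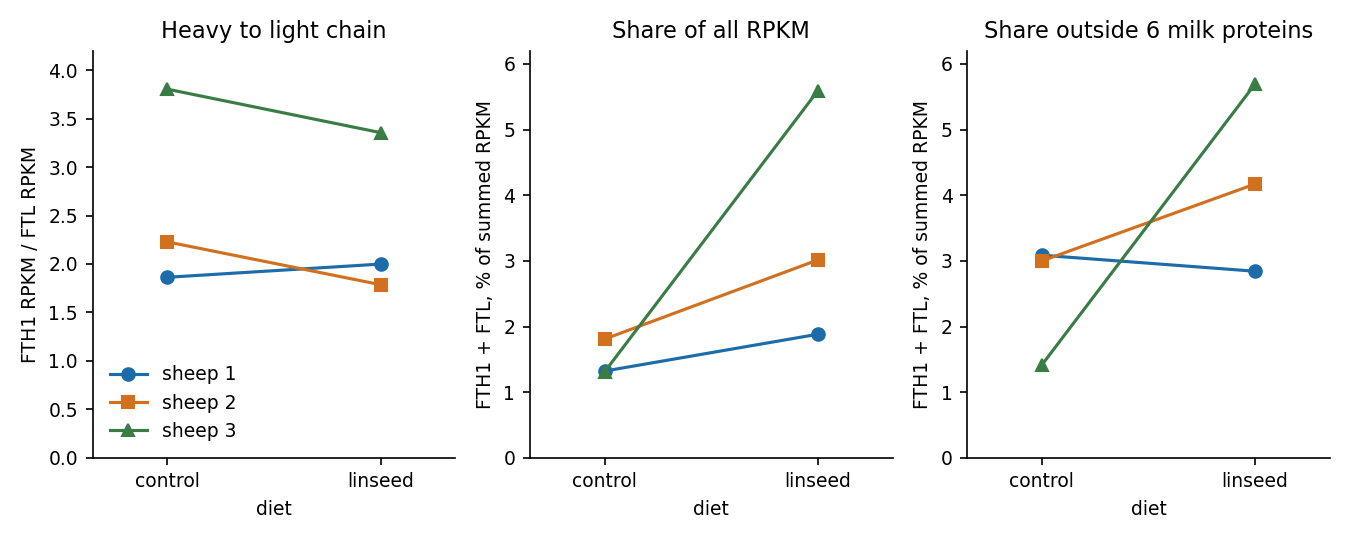
FTH1 to FTL ratio of RPKM (left), share of both ferritins in all RPKM (middle) and share in RPKM outside 6 milk protein genes (right), with 1 line per sheep from control to linseed. Sheep 3 has the highest ratio under both diets (3.80 and 3.36), and in the right panel the line of sheep 1 goes down, from 3.09% to 2.84%.

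Transcript length moved with the diet difference, and the ferritins are short. The lengths solved from the RPKM steps were 929 nt for FTH1 and 900 nt for FTL, against a median of 2297 nt for tested transcripts. Of 20 bins of transcripts by length, the bin of 855 to 1041 nt that held both had a median log2 difference of 0.46, while the longest transcripts had -0.58. By sheep the median of the ferritin bin was 0.73, 0.33 and 0.50 in sheep 1, 2 and 3. With each library's bin median subtracted, FTH1 had 0.10, 0.39 and 2.13 in the 3 sheep and FTL -0.0033, 0.71 and 2.32. In sheep 1 the ferritins thus lay close to other transcripts of their length, and in sheep 3 well above them. After this correction the difference was 0.87 ± 0.54 (SE) for FTH1, whose groups did not overlap, and 1.01 ± 0.67 for FTL, whose groups did. The part of length in the ferritin values was not tested beyond this subtraction.

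**Figure D4:**
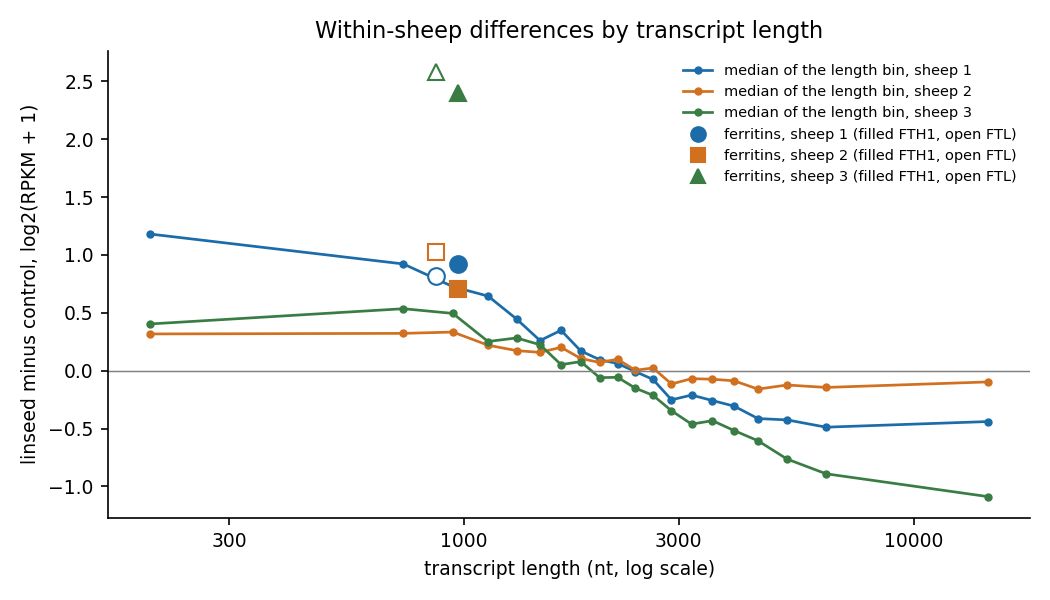
Within-sheep log2 difference, linseed minus control, against transcript length on a log axis. Lines are the medians of 20 length bins in each sheep, and symbols are FTH1 (filled) and FTL (open), moved slightly apart along the axis. The symbols of sheep 1 lie near its line, and those of sheep 3 (2.40 and 2.58) lie far above the bin median of 0.50.

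Markers of macrophages and neutrophils stood at other levels under linseed as well. The summed RPKM of 9 macrophage markers came to 152.9, 1428.5 and 1052 for the controls of sheep 1, 2 and 3 and to 2349, 2704 and 4134 for their linseed libraries, with no overlap. Of the 8 macrophage markers tested, 5 were higher in all 3 sheep (CD68, AIF1, C1QA, TREM2 and TYROBP) and 1 lower (MRC1). Over all tested transcripts these shares were 23% and 26.2%. CD14 and MSR1 were mixed, and CD14 had means of 46.0 RPKM in controls and 43.1 with linseed. In the linseed libraries the macrophage sum was lowest in sheep 1 and highest in sheep 3, as was FTH1. FTL was also lowest in linseed sheep 1 but highest in sheep 2 (6606, 10055 and 9200 RPKM). TYROBP (1431, 1592 and 2531 RPKM) and CD68 (367.6, 601.0 and 923.2) made up most of the macrophage sum with linseed. C1QA and TREM2 had another order and were highest in linseed sheep 1, at 80.9 and 304.0 RPKM. Among controls sheep 1 had the lowest macrophage sum and sheep 3 the lowest FTH1 and FTL. The sum of 4 neutrophil markers ran from 418.1 to 777.0 in controls and from 2054 to 3147 with linseed. It was highest in linseed sheep 1, where FTH1 and FTL were each the lowest of their group. Sums for 8 lymphocyte markers (5.43 to 434.7 and 70.8 to 117.0) and 4 epithelial markers (355.5 to 540.1 and 80.4 to 623.3) overlapped between the diets. The epithelial genes went different ways: EPCAM, ELF5 and CD24 were lower with linseed in all 3 sheep. For CD24 every linseed library (29.6 to 51.7 RPKM) lay below every control (132.8 to 286.9). KRT8 had 17.6, 98.6 and 54.5 RPKM in controls and 354.9, 500.0 and 21.3 with linseed, the bulk of the sum in linseed sheep 1 and 2. Of the red cell lineage, which also handles much iron, ALAS2 was at 0 in all 6 libraries and SLC4A1 at no more than 0.40 RPKM. In bulk RNA, fewer cells of a type and less RNA per cell cannot be told apart, and the part of cell types in the ferritin values was not tested.

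The transcripts with a pattern most like FTH1 were sought among 7293 tested transcripts with a symbol, by Pearson r over the 6 libraries. They were CPT1B (0.995), a carnitine palmitoyltransferase of fatty acid import into mitochondria, the proteasome subunit gene PSMD13 (0.991), POP7 of ribonuclease P (0.987), PRELID1 (0.987), which carries phospholipid between mitochondrial membranes, and RASSF4 (0.983). Likeness of pattern was not likeness of size: PSMD13 had a log2 difference of 0.51 ± 0.56 (SE) and CPT1B 1.03 ± 0.55. CPT1B stayed between 1.06 and 6.13 RPKM. For FTL the nearest were POLR2F (0.999), a shared subunit of the RNA polymerases, DUS1L (0.976), GEMIN8 (0.976), SURF2 (0.974) and TEN1 (0.973). Of the named transcripts, 157 were closer to FTH1 than FTL was, and 121 were closer to FTL than FTH1 was. With 6 libraries from 3 animals many transcripts reach a high r, so these are descriptions of rank.

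Other genes of iron handling went both ways, in numbers near the shares over all tested transcripts. Of 67 listed genes 37 were matched to a symbol and 31 passed the filter of a mean of 1 RPKM. The genes without a match include SLC40A1 (ferroportin), HMOX1, FTMT, FBXL5, KEAP1 and GPX4. Only 31.9% of the transcripts in the deposited table got a symbol, so a gene without a match cannot be read as absent. Limma called 0 of the 31 in either direction (0% of all transcripts tested). With linseed 7 were higher in all 3 sheep and 10 lower, beside 23% and 26.2% of all tested transcripts. In 5 the linseed libraries lay above all controls and in 3 below, beside 13.3% and 7.83%. The median difference of the list was -0.33, and that of all tested transcripts -0.12. The list's median moved with single libraries, to -0.09 without linseed sheep 1, -0.16 without control sheep 3 and -0.61 without linseed sheep 3.

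Of 3 tested genes that load ferritin or take it apart, PCBP1 had lower values with linseed in all 3 sheep and NCOA4 in 2. PCBP2 was barely read, at 2.70, 1.26 and 3.44 RPKM in controls and 0.92, 1.20 and 3.44 with linseed, so sheep 2 and 3 hardly differed (7 to 105 reads per library). The iron chaperone gene PCBP1, whose product delivers iron to ferritin, was read at 232.0, 111.9 and 263.4 RPKM under the control diet and at 22.3, 52.2 and 203.6 under linseed. It was lower in each sheep, although linseed sheep 3 lay within the control range (log2 difference -1.59 ± 0.81 SE). The difference was -0.87 without linseed sheep 1 and -2.44 without linseed sheep 3. NCOA4, the receptor that takes ferritin to the lysosome for iron release, went from 28.5, 30.4 and 49.8 to 2.48, 10.3 and 50.3 RPKM (-1.51 ± 0.88, or -0.58 without linseed sheep 1 and -2.53 without linseed sheep 3). Sheep 3, which had the largest ferritin fold, showed almost no difference in NCOA4, and sheep 1 the largest.

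Among uptake genes the largest difference was that of SLC39A8, a metal importer of the ZIP family that carries zinc, manganese and iron. Its level was 321.5, 21.1 and 28.8 RPKM in controls and 18.1, 7.04 and 1.19 with linseed, so the groups did not overlap. The difference was -3.10 ± 1.06 (SE), and -1.88 without control sheep 1, the one library above 100 RPKM. Limma gave an adjusted p of 0.264, and 0.0427 with the sheep as a block, which made it 1 of 31 list genes called in the blocked fit, beside 1.34% of all tested transcripts called lower there. After the length correction the blocked adjusted p in limma was 0.0916. Lactoferrin (LTF), the iron-binding protein of milk and neutrophil granules, had 1146.5, 87.7 and 50.3 RPKM in controls and 266.8, 186.9 and 4.75 with linseed, in opposite directions in different sheep (-1.39 ± 1.45, or from -2.40 without linseed sheep 1 to 0.37 without linseed sheep 3, and -0.03 without control sheep 1). The phagosomal metal exporter gene SLC11A1 was higher in all 3 sheep (1.27 ± 0.82). The transferrin receptor gene TFRC, added after its values were seen because its mRNA is the classic counterpart of ferritin in iron regulation, stood at 0 to 3.36 RPKM and was lower in each sheep (-0.57 ± 0.58).

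Of the iron sensors, the cytosolic aconitase gene ACO1, whose product becomes an iron regulatory protein when iron is low, had the smallest difference among the iron genes named here. It had 23.8, 20.2 and 19.4 RPKM in controls and 21.3, 20.2 and 25.9 with linseed, a difference of 0.08 ± 0.56 (SE) that turned to -0.15 once milk proteins were removed from the total, to -0.03 after quantile normalization and to -0.02 without linseed sheep 3. IREB2, which encodes the other iron regulatory protein and was also added after its values were seen, went from 8.25, 4.73 and 16.1 to 1.42, 1.17 and 6.98 RPKM. It was lower in each sheep (-1.48 ± 0.70), with an adjusted p of 0.337 in limma and 0.092 with the sheep as a block. Hepcidin (HAMP), the hormone that closes the iron exporter ferroportin, was read at 289.8, 167.8 and 7.95 RPKM in controls and 156.8, 130.3 and 2.22 with linseed. Like the milk proteins it was lowest in sheep 3 under both diets, and its difference of -0.91 ± 1.54 turned to 0.06 when control sheep 1 was left out and to 0.92 when linseed sheep 3 was, and was -2.45 without control sheep 3.

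Heme genes went both ways. UROD, an enzyme of heme synthesis, had 2.56, 16.3 and 7.67 RPKM in controls and 46.7, 44.2 and 23.1 with linseed, with no overlap (2.20 ± 0.70 SE; limma adjusted p of 0.263, and 0.0579 with the sheep as a block). The heme transporter gene SLC48A1, which brings heme from the lysosome to the cytosol, had 11.9, 21.4 and 16.5 RPKM in controls and 22.0, 27.0 and 38.3 with linseed (0.77 ± 0.58). ALAS1, the first enzyme of heme synthesis, had differences of -1.01, -0.40 and 1.03 in sheep 1, 2 and 3. FECH, which inserts iron into heme, was lower in all 3 sheep (-0.92 ± 0.56). Of the 7 heme genes tested 4 were higher in all 3 sheep and 2 lower, beside 23% and 26.2% of all tested transcripts. No other role of the list had as many genes higher in all 3. In the mitochondrial group the iron importer gene SLC25A28 had the tightest linseed values, 43.4, 45.9 and 48.4 RPKM, against 13.5, 21.6 and 23.0 in controls (1.24 ± 0.57). SLC25A28 and GLRX5 of iron-sulfur cluster assembly were higher in all 3 sheep, and the other 3 genes tested were mixed.

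**Figure D5:**
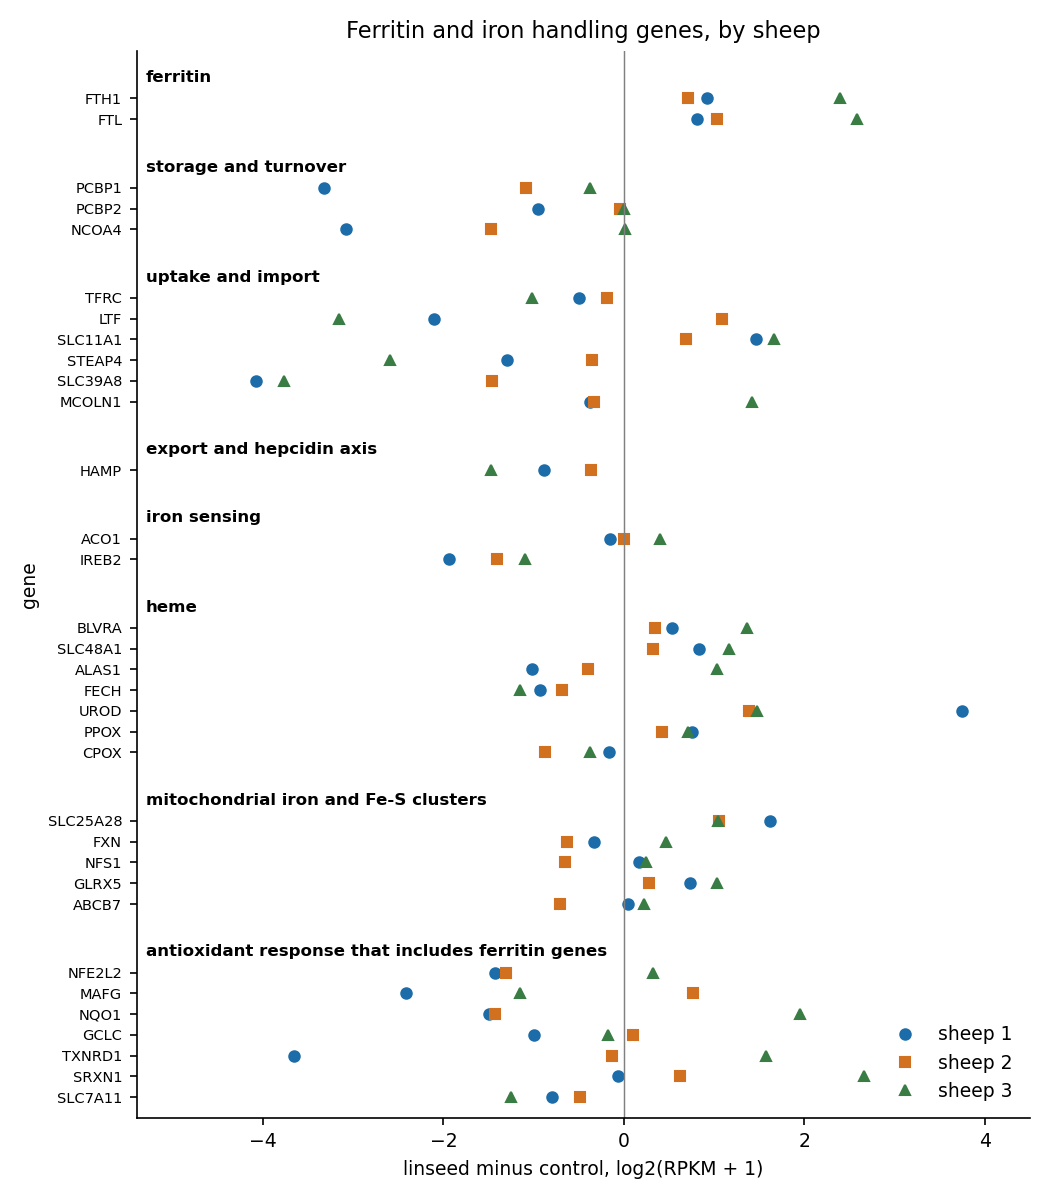
Log2 difference, linseed minus control, in each of the 3 sheep for FTH1, FTL and the 31 iron handling genes tested, grouped by role. Both ferritins, chosen with their values known, lie to the right of 0 in every sheep. Of the 31 other genes 7 lie to the right and 10 to the left of 0 in every sheep, beside 23% and 26.2% of all tested transcripts.

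The 7 tested genes of the antioxidant response, the pathway that also includes both ferritins among its targets, did not move together. Its transcription factor gene NFE2L2 had 24.2, 42.0 and 31.2 RPKM in controls and 8.40, 16.4 and 39.3 with linseed (-0.80 ± 0.67 SE, or -0.30 without linseed sheep 1 and -1.35 without linseed sheep 3). The sulfiredoxin gene SRXN1 had 161.8, 170.7 and 77.4 RPKM in controls and 155.1, 263.9 and 493.5 with linseed (1.07 ± 0.66, or 0.65 without linseed sheep 3 and 0.71 without control sheep 3). Its within-sheep differences of -0.06, 0.62 and 2.66 were largest in sheep 3, as those of the ferritins were. SLC7A11, the cystine importer gene, was lower in all 3 sheep, and the other 6 of the 7 genes tested were mixed, NQO1 and TXNRD1 among them, whose differences were positive in sheep 3 alone.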

How the data were processed

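RNA from milk somatic cells, pelleted from 250 ml of milk and made into libraries with the TruSeq RNA kit per the labels' protocols, was read in 3 control and 3 linseed libraries. The authors deposited 1 table of RPKM for 49705 RefSeq transcripts, written with decimal commas. Per the submitters' processing notes, Trimmomatic 0.33 trimmed the reads. Aligner, counter, build and the handling of reads shared with ferritin pseudogenes were not given in the sources used here. Titles gave the groups, read with the series design, and the same animal identifier stands under the same number in both.

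Symbols came from the RefSeq table of ARS-UI_Ramb_v3.0 by accession without version (15836 transcripts matched), for names alone. Totals, lengths and reads were solved from the RPKM steps (tolerance 0.01 reads; all 15891 tested transcripts solved), and the solver and fit were tested on simulated data. No sequence table of this organism was used, so no motif search was made.

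Transcripts whose mean reached 1 RPKM were tested on log2(RPKM + 1) with limma 3.58.1 in R 4.3.3 (mean-variance trend, Benjamini-Hochberg adjustment). The members, gene lists and settings were chosen with earlier results of these data known. Where genes are named in a role, they are those with a mean of at least 20 RPKM or the highest of the role, unless said otherwise; others are named after their values were seen. In the iron list 1 gene is not reported here and was left out of its counts. Each gene of a list entered by its most abundant transcript, and for each ferritin the 5 nearest transcripts by r are named. The animals pair the libraries: deviations from group means correlated at 0.18, 0.25 and 0.40 in sheep 1, 2 and 3, though control sheep 1 correlated at 0.24 with linseed sheep 2. P-values of the fits without a block treat the 6 libraries as independent, although the same 3 animals gave both groups. With the sheep as a block, p-values rest on the within-sheep differences of 3 animals. In all fits limma draws the variance of each transcript toward a value fitted over all transcripts. P-values and SEs of the fits thus rest only in part on the spread of the transcript itself. Alternatives covered the pseudocount (0.1), the filter (none, or 5 RPKM), scaling, length, voom on recovered reads, the sheep as a block, and leaving out each library or sheep.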

Additional observations from a re-analysis of the deposited data

How the results depend on the processing

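Both ferritins kept a higher mean with linseed under all 20 alternatives run, but for many of these the sign was fixed in advance. Every linseed value lay above every control value, so leaving out a library or a sheep could not turn it. The filters and the sheep as a block left the difference itself unchanged. On the log2 scale it was 0.87 to 1.55 for FTH1 and 1.01 to 1.49 for FTL across the 11 that kept all libraries. Across the 9 that left out a library or a sheep it was 0.81 to 1.66 and 0.92 to 1.82. In single sheep the direction of FTL turned: sheep 1 had -0.12 after quantile normalization, where the groups overlapped, and -0.0033 after the length correction. The log2 ratio of FTH1 to FTL (-0.13, linseed minus control) changed sign, at 0.18 with quantile normalization and from -0.41 to 0.17 across the left-out libraries and sheep. The difference in their summed share of RPKM, 2.02 percentage points, was 1.74 outside milk proteins, 1.65 as shares of reads (added after seeing the data) and 0.88 to 2.82 across the left-out libraries and sheep, lowest without sheep 3.

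Over all transcripts, 0 calls became 203 higher and 213 lower with the sheep as a replicate block, 41 and 155 with that block and milk proteins left out of the total, and 0 under the other alternatives, the block with the length correction included. In the iron handling list the replicate block called 1 gene lower, SLC39A8, as it did with milk proteins left out (1 lower). The number of list genes lower in all 3 sheep was 5 of 22 at a mean of at least 5 RPKM, since fewer genes were then tested, and 12 of 31 once milk proteins were removed from the total. The median of the list (-0.33) kept its sign under all 20 alternatives but not its size: it was -0.07 after the length correction, -0.57 with milk proteins left out, -0.08 without sheep 1, -0.09 without its linseed library alone and -0.61 without the linseed library of sheep 3. Depth set no limit on the ferritins, but TFRC was at 0 reads in 1 library. The values rest on 3 animals.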
